A study of Mus musculus with 29 samples.

Results

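The 9 marker genes, 4 of lymphatic endothelium (Prox1, Lyve1, Mmrn1 and Reln) and 5 of mesothelium (Wt1, Msln, Upk3b, Lrrn4 and Krt19), were followed through 29 libraries of the developing mouse lung. They were chosen by symbol, each through its NCBI gene ID, and make up 9 of 22779 gene IDs in the table. By RefSeq annotation of GRCm38.p6, the lymphatic genes are Prox1 at chr1:190118035-190170827, Lyve1 at chr7:110850607-110862953, Mmrn1 at chr6:60944317-60989378 and Reln at chr5:21884454-22344705. The mesothelial genes are Wt1 at chr2:105126529-105173614, Msln at chr17:25748613-25754378, Upk3b at chr5:136038496-136044993, Lrrn4 at chr2:132866686-132894010 and Krt19 at chr11:100140810-100145926. The libraries came from alveolar septa of wild-type C57BL/6 mice, cut out of frozen sections by laser capture, with each library made from 1 animal. The cut was placed wide of large vessels and bronchi, and the pups were bred from timed-pregnant females. There were 4 embryos (2 at E16.5 and 2 at E18.5, the prenatal group), 8 pups between P0.5 and P2.5 (postnatal saccular; P0.5, P1, P1.5, P2.5), 8 between P4 and P10 (early alveolar; P4, P5, P7, P10) and 9 between P13.5 and P28 (late alveolar; P13.5, P15, P19, P23, P28), with 2 animals at each age except 1 at P28. The groups were set by age alone.

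Lymphatic vessels drain fluid and immune cells from the lung. Their endothelium is specified by the transcription factor Prox1, displays the hyaluronan receptor Lyve1 and releases Mmrn1 (multimerin 1) and Reln (reelin). Mesothelium is the single cell sheet that covers the lung as visceral pleura, and its cells carry the transcription factor Wt1, the surface glycoprotein Msln (mesothelin), the uroplakin Upk3b, the leucine-rich repeat membrane protein Lrrn4 and the intermediate filament keratin Krt19. Several of these genes are not exclusive to the cell type. Lyve1 is also carried by some tissue macrophages, Mmrn1 by platelets, and Krt19 by airway and other simple epithelia.

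Upstream sequences from RefSeq were at hand for 5 of the 9 genes (Prox1, Reln, Mmrn1, Upk3b and Lrrn4), and Lyve1, Wt1, Msln and Krt19 had no entry. The 250 bases before the start used in that table are shown for Upk3b and Lrrn4, a pair of mesothelial genes whose levels were correlated over the libraries, because these were the windows of the set that held the letters GGAATG, the core that TEAD transcription factors read, on either strand. The build is GRCm38.p6, and capitals mark the match. Upk3b is on the plus strand (chr5:136038246-136038495) and carries the reverse complement CATTCC. Lrrn4 is on the minus strand (chr2:132880863-132881112) and carries GGAATG. Its window precedes the start that the RefSeq table of upstream sequences uses and lies within the longer annotated span of the gene given above, whose far end is further upstream.
Upk3b: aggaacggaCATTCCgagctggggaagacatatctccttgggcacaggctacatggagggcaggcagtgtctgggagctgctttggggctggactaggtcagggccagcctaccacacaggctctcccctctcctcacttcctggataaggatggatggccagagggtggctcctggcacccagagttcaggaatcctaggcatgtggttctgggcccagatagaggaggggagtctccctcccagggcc
Lrrn4: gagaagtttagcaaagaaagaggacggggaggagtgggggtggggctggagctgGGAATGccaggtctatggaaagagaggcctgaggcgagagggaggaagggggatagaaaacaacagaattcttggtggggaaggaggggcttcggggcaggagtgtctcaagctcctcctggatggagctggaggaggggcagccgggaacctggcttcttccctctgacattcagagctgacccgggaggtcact
The same 6 letters occurred in 12.6% of 32851 RefSeq upstream windows of this length, so the match is a description of these windows and not a site. Of the other motifs searched on both strands, the element GCGTGGGAG bound by WT1 was in none of the 6 windows of the 5 genes and in 0.405% of all, GCGGGGGCG was in that of Reln and in 2.57% of all, TATAAA in 1 of those of Prox1 and in 12.4% of all, and AACAAT, read by SOX factors, in that of Mmrn1 and in 9.42% of all.

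The deposited unit is FPKM, which divides the fragments of a gene by its transcript length and by the mapped fragments of the library, so levels can be compared between genes, while read depth is unknown. FPKM summed to between 318176 and 457706 per library. In the libraries of P10 pup a, P19 pup d and P19 pup f, 416, 578 and 242 of 8623 genes that are usually well expressed were listed at 0, so a 0 there can be a failed estimate, and 4, 2 and 1 of the 9 marker genes were at 0 in them. Genes of type 2 cells, with the surfactant protein gene Sftpc at 2066 to 21034 FPKM, were abundant in every library, as befits the labelled tissue. The club cell gene Scgb1a1 was also high, from 3.62 FPKM in E16.5 embryo 2 to 5143 in P5 pup b, although bronchi were avoided.

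The 9 genes spanned a wide range of levels. Over the 29 libraries Lyve1 averaged 134 ± 68.6 FPKM (SD, n = 29), which ranked 258 among all gene IDs. Krt19 averaged 54.2 ± 39.9 and Msln 33.0 ± 34.4 FPKM. Mmrn1 was lower at 12.2 ± 9.21, followed by Upk3b at 4.82 ± 3.83 and Prox1 at 3.97 ± 3.19. Reln at 2.09 ± 1.55, Lrrn4 at 1.92 ± 1.98 and Wt1 at 0.680 ± 1.05 FPKM were near the limit of detection. Wt1 was listed at 0 in 12 of 29 libraries and reached 1 FPKM in 7, whereas Lyve1 and Krt19 did so in all 29. The plot of the 9 genes by age shows these courses animal by animal.

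**Figure D1:**
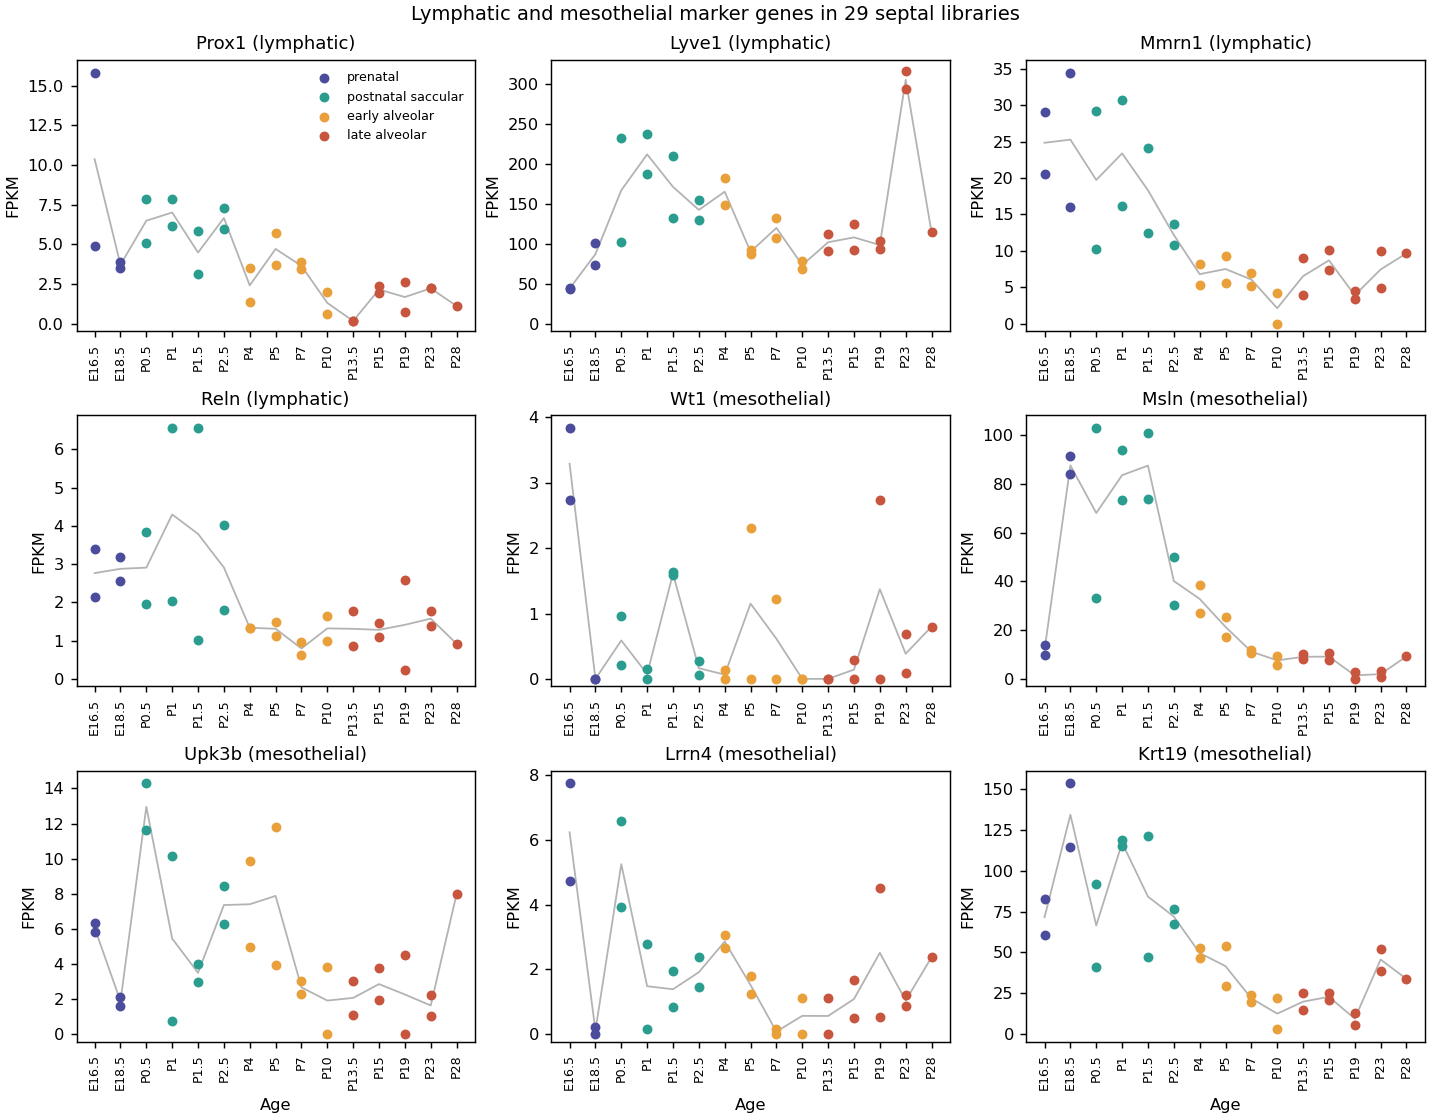
FPKM of each marker gene (vertical axis, 1 scale per gene) by age (horizontal axis, in order and not to scale), with 1 point per animal coloured by stage group and a grey line through the mean of each age. Mmrn1 is lower in every early alveolar pup (at most 9.35) than in every postnatal saccular pup (at least 10.2), Msln is low at E16.5 (9.99 and 13.8) and high at E18.5 (84.0 and 91.4), Lyve1 has its highest values in the P23 pups (294 and 316), and Wt1 is at or near 0 in most libraries.

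Stage groups were compared in 1 limma fit of log2(FPKM + 1) over 14616 genes that reached 1 FPKM in 4 or more libraries, a filter that all 9 marker genes passed. Calls were made where the p adjusted over all tested genes (Benjamini-Hochberg) was under 0.05, fold changes are on the log2(FPKM + 1) scale, which understates the changes of genes near 0, and "standard error" below is that of the fit. Of the 9 genes, 6 changed with age in limma's F test of a spline over all ages (Msln, Krt19, Mmrn1, Prox1, Lyve1 and Reln), against 30.7% of all tested genes. Since each library is a mixture of cells, fewer lymphatic or mesothelial cells in a capture and less RNA per cell cannot be told apart.

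Around birth 1 of the 9 marker genes rose, Lyve1, and none fell, where 9.11% of all tested genes were called higher after birth and 6.81% lower. This compares the postnatal saccular pups with the embryos. Lyve1 stood at 44.7 and 42.8 FPKM in the E16.5 embryos and at 73.3 and 100.5 in the E18.5 embryos. In the 8 postnatal saccular libraries it ran from 102 through a median of 171 to 237 FPKM. The groups did not overlap, with the highest embryo just under the lowest pup. The increase was 1.42 in log2 units (standard error 0.33, adjusted p = 0.0029), from 65.3 ± 27.3 (SD, n = 4) to 173 ± 50.8 FPKM (SD, n = 8). Set against E18.5 alone it was 0.95 and was not called (adjusted p = 0.191). The median change was 0.06 for the 4 lymphatic and 0.12 for the 5 mesothelial genes, beside -0.00413 for all tested genes.

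In the later adjacent comparisons Lyve1 was not called, with -0.64 at the step to the early alveolar group (adjusted p = 0.266) and 0.31 at the next (adjusted p = 0.505). With 15 age groups in the fit the first of these was called (-0.64, adjusted p = 0.0206). The early alveolar libraries ranged from 68.2 to 182 FPKM with a median of 99.9, and the late alveolar ones from 91.1 to 316 with a median of 112. Both P23 pups, at 294 and 316 FPKM, lay above every other library, and the other late alveolar pups were at 91.1 to 124. Ordered by mean, the groups ran from postnatal saccular (173) through late alveolar (149 ± 89.5, n = 9) and early alveolar (112 ± 39.0, n = 8) to prenatal (65.3), and the ranges of the 3 postnatal groups overlapped. The late alveolar group was above the prenatal one by 1.09 (adjusted p = 0.00945), a call that was lost without E16.5 embryo 9 or without E16.5 embryo 2 (0.94 and 0.92, adjusted p = 0.0532 and 0.0549) and against E18.5 alone (0.61, adjusted p = 0.34). The age test of Lyve1 passed over all ages (adjusted p = 0.00133) and not over postnatal libraries alone (0.0529).

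The means of single macrophage markers differed in both directions between the embryos and the postnatal saccular pups, though without a call. The summed FPKM of 7 macrophage genes was 25.6 to 40.5 in the prenatal and 18.9 to 41.2 in the postnatal saccular libraries, and none of the 6 tested was called. Csf1r, the receptor for macrophage colony-stimulating factor, was at 4.27 to 6.50 FPKM in the embryos and 8.18 to 14.5 in the pups, with no overlap (0.85, adjusted p = 0.128). Cd68 averaged 4.15 and 9.34 FPKM (1.14, adjusted p = 0.169), while the mannose receptor gene Mrc1 averaged 16.2 and 7.86 FPKM (-1.02, adjusted p = 0.121). In the P23 pups the sum was 36.6 and 48.8, and it reached 259 in P15 pup c, where Lyve1 was at 91.6 FPKM. Folr2 and Timd4, found in some resident macrophages, were listed at 0 in 22 and 23 of 29 libraries. Of 6 tested genes of blood vessel endothelium, 3 rose between the embryos and the postnatal saccular pups. The part of macrophages and of blood vessels in the change of Lyve1 was not tested.

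Prox1 showed the opposite drift. It was at 4.90 and 15.8 FPKM in the E16.5 embryos and at 3.51 and 3.91 in the E18.5 embryos. The 8 postnatal saccular libraries ran from 3.10 through a median of 6.08 to 7.89 FPKM, the early alveolar ones from 0.618 through 3.45 to 5.71, and the late alveolar ones from 0.144 through 1.94 to 2.60. The late alveolar libraries all lay below the embryos, and neighbouring groups overlapped. From the embryos to the late alveolar pups Prox1 fell by 1.57 (standard error 0.38, adjusted p = 0.00232) and changed with age (adjusted p = 4.0e-04), while no step between neighbouring groups was called. Against E18.5 alone the difference was -1.03 and was not called (adjusted p = 0.14).

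By mean, Mmrn1 was highest up to P1.5, and it was lower in the early alveolar than in the postnatal saccular group. The mean was 18.3 FPKM at P1.5, 12.2 at P2.5 and 6.78 at P4, so part of the decline lay inside the postnatal saccular group. Whether the fall was gradual or a step was not tested. Mmrn1 was at 20.6 and 29.1 FPKM at E16.5, at 34.5 and 16.1 at E18.5, and between 10.2 and 30.7 with a median of 14.9 in the postnatal saccular group. In the early alveolar group it ran from a listed 0 in P10 pup a through 5.49 to 9.35 FPKM. Every early alveolar library was below every postnatal saccular one. At this saccular-to-alveolar step, from P0.5-P2.5 to P4-P10, 3 of the 9 genes fell (Mmrn1, Msln and Krt19) and none rose, where 0.937% of all tested genes were lower and 0.527% higher. The median change at this step was -0.91 for the 4 lymphatic and -0.63 for the 5 mesothelial genes, beside -0.03 for all tested genes. Among further genes tested, it was -0.57 for 3 lymphatic ligand and processing genes and -0.62 for 4 other lymphatic markers. It was -0.07 for 3 lymphatic receptors, 0.02 for 5 lymphatic transcription factors and -0.01 for 6 other mesothelial markers. None of these further genes was called at this step. For Mmrn1 the change was -1.67 (standard error 0.35, adjusted p = 0.0144), from 18.4 ± 8.36 (SD, n = 8) to 5.61 ± 2.84 FPKM (SD, n = 8). It was called without any single library and not with a pseudocount of 0.1 (adjusted p = 0.0681). The late alveolar group, at 3.35 to 10.1 FPKM with a median of 7.30, overlapped the early alveolar one and differed from the prenatal one by -1.74 (adjusted p = 0.00212). The platelet genes Pf4, Ppbp, Itga2b, Gp9 and Gp1bb had no call in any stage comparison, and their sum was 6.58 to 27.1 FPKM in the postnatal saccular and 1.77 to 17.9 in the early alveolar libraries. Their part in the change of Mmrn1 was not tested.

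Reln was scarce throughout. It was at 2.13 and 3.40 FPKM at E16.5, at 3.19 and 2.57 at E18.5, and between 1.02 and 6.57 with a median of 2.94 in the postnatal saccular group. The early alveolar libraries ranged from 0.629 to 1.64 and the late alveolar ones from 0.236 to 2.59 FPKM. The embryos all exceeded the early alveolar pups, a pair of groups that was not compared. No stage comparison was called, with -0.90 at the saccular-to-alveolar step (adjusted p = 0.0759). That step was called with array quality weights (-0.90, adjusted p = 0.0162), without P0.5 pup f (-0.96, adjusted p = 0.0484) and without P1.5 pup d (-1.04, adjusted p = 0.0354). The late alveolar group differed from the prenatal one by -0.75 (adjusted p = 0.0643), which was called without P1.5 pup d (-0.75, adjusted p = 0.0495) and without P19 pup d (-0.83, adjusted p = 0.0389). The age test passed narrowly (adjusted p = 0.0461), and 18 of the 29 fits that each left out 1 library lost it.

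Among other genes of the lymphatic pathway, most calls between neighbouring groups were made between the embryos and the postnatal saccular pups. The genes called there were higher in the pups, except Maf. Of the receptors, Flt4 (VEGFR3), which binds Vegfc, its co-receptor Nrp2 and the integrin Itga9, needed for valves, all 3 rose from the prenatal to the postnatal saccular group. Flt4 was at 4.44, 3.02, 5.34 and 5.86 FPKM in the embryos and at 10.3 to 14.6 in the postnatal saccular pups. These groups did not overlap, and the change of Flt4 was 1.26 (standard error 0.22, adjusted p = 2.3e-04). Nrp2 rose by 0.76 (adjusted p = 0.0206) and Itga9 by 0.55 (adjusted p = 0.0274), and the median change of the 3 receptors was 0.76 beside -0.00413 for all tested genes. The median was 0.23 for 5 transcription factors, 1.08 for 4 other lymphatic markers and -0.39 for 3 ligand and processing genes. The ligand Vegfc rose by 1.38 (adjusted p = 0.016), and Ccbe1 and Adamts3, which take part in its activation, were not called. Among 5 tested transcription factors Nfatc1, which acts in valve formation, rose by 1.01 (adjusted p = 6.6e-04) and Maf fell by 0.94 (adjusted p = 0.0353), while Sox18, Nr2f2 and Tbx1 were not called and Foxc2 did not pass the filter. Of 4 other tested markers, Gja4, a connexin also of arteries, rose by 1.29 (adjusted p = 0.00327). Against E18.5 alone, 1 of the 3 receptors and neither Vegfc (1.16, adjusted p = 0.213) nor Maf (-1.11, adjusted p = 0.11) was called. Without E16.5 embryo 9 Vegfc (1.28, adjusted p = 0.0642), Nrp2 (0.70, 0.0796), Itga9 (0.42, 0.156) and Maf (-1.02, 0.0583) were not called, and without E16.5 embryo 2 the same held (in this order 1.32, 0.61, 0.47 and -0.97, adjusted p = 0.0511, 0.11, 0.107 and 0.0687). The call of Itga9 was also lost without P1.5 pup e (0.51, 0.0505), and that of Maf without E18.5 embryo 4, E18.5 embryo 3, P1 pup d or P1.5 pup d (-0.91 to -0.88, adjusted p = 0.0529 to 0.0879).

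Genes of blood vessel endothelium moved in the same comparison, with 3 of 6 tested higher and none lower, and a summed level of 269 to 666 FPKM in the embryos and 481 to 790 in the postnatal saccular pups. Flt4, Nrp2, Nfatc1 and Gja4 are not confined to lymphatic vessels, and the part of blood vessels in these changes was not tested. Later, the late alveolar pups showed a further fall of Maf, with a change of -1.01 (adjusted p = 0.00601), and no receptor or ligand was called in the later adjacent comparisons (1 receptor in the last of them without the 3 libraries rich in zeros). Flt4 (1.41), Nfatc1 (1.14) and Gja4 (1.72) were also above the prenatal level in the late alveolar group. The lymphatic chemokine gene Ccl21a was called in none of the comparisons, and it varied from a listed 0 in P19 pup d to 162 FPKM in P1 pup d.

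Msln rose before birth and fell after it. It stood at 9.99 and 13.8 FPKM at E16.5 and at 84.0 and 91.4 at E18.5. In the postnatal saccular group it ran from 30.3 through a median of 73.8 to 103 FPKM, in the early alveolar group from 5.72 through 14.5 to 38.5, and in the late alveolar group from a listed 0 in P19 pup d through 7.62 to 10.7. Within the postnatal saccular group the mean was 87.6 FPKM at P1.5 and 40.2 at P2.5, beside 32.9 at P4. Within the early alveolar group the P4 pups were highest (27.2 and 38.5) and the P10 pups lowest (9.47 and 5.72). At the saccular-to-alveolar step Msln fell by 1.97 (standard error 0.50, adjusted p = 0.0391), from 69.9 ± 29.2 (SD, n = 8) to 18.2 ± 11.2 FPKM (SD, n = 8). It fell by a further 1.66 to the late alveolar group (standard error 0.49, adjusted p = 0.0238), at 5.83 ± 4.14 FPKM (SD, n = 9), where it was the 1 gene of the 9 called and 7.47% of all tested genes were lower and 3.89% higher.

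Between the prenatal and late alveolar groups the call of Msln was made in all 40 alternatives, unlike those of its steps. From the prenatal to the late alveolar group 5 of the 9 genes were called, Lyve1 upwards and Prox1, Mmrn1, Msln and Krt19 downwards, against 12.7% of all tested genes higher and 18.3% lower. The median change was -1.16 for the 4 lymphatic and -0.60 for the 5 mesothelial genes, beside -0.16 for all tested genes. Msln fell by 2.68 there (standard error 0.60, adjusted p = 0.00106) and changed with age (adjusted p = 2.3e-07). Its prenatal level joined 9.99 and 13.8 FPKM at E16.5, near the late alveolar maximum of 10.7, and 84.0 and 91.4 at E18.5. The fall of Msln was thus mainly one from E18.5. Without any 1 of 11 libraries (P0.5 pup e, P1 pups d and e, P1.5 pups d and e, P2.5 pup h, P5 pup b, P7 pups c and d, P10 pups a and f) its fall to the early alveolar group was -2.02 to -1.78 and was not called (adjusted p = 0.0593 to 0.0868). Its fall to the late alveolar group was not called without P4 pup a, P4 pup e, P19 pup d or P23 pup f (-1.55 to -1.36, adjusted p = 0.0503 to 0.0586), nor with all 3 libraries rich in zeros left out (-1.35, adjusted p = 0.0764).

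Krt19 followed a similar course at a higher level. It was at 82.5 and 60.5 FPKM at E16.5, at 154 and 115 at E18.5, and between 40.8 and 121 with a median of 84.4 in the postnatal saccular group. The early alveolar libraries ran from 2.95 in P10 pup a through 26.7 to 53.7 FPKM and the late alveolar ones from 5.92 in P19 pup d through 24.9 to 52.3. Within the late alveolar group the P23 pups were highest (38.9 and 52.3), where Msln was at 3.12 and 0.784 FPKM. The embryos all exceeded the early and late alveolar pups, whereas the postnatal saccular and early alveolar ranges overlapped. Krt19 fell by 1.63 at the saccular-to-alveolar step (standard error 0.42, adjusted p = 0.0408) with a change of -2.10 from the embryos to the late alveolar pups (standard error 0.50, adjusted p = 0.00187). Its age test gave an adjusted p of 7.2e-06. The fall to the early alveolar group was not called without any 1 of 11 libraries (P0.5 pup e, P1 pups d and e, P1.5 pup e, P2.5 pups h and i, P5 pup b, P7 pups c and d, P10 pups a and f), with changes of -1.66 to -1.24 and adjusted p of 0.0574 to 0.0926.

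The other simple epithelial keratins, which mesothelium shares with alveolar and airway epithelium, fell at the same step. Krt7, Krt8 and Krt18 were all lower in the early alveolar pups, by -1.07 (adjusted p = 0.00609), -0.91 (adjusted p = 0.0283) and -1.05 (adjusted p = 0.0263). Without P0.5 pup e, P1 pup d, P1 pup e, P1.5 pup e, P7 pup d or P10 pup a neither Krt8 nor Krt18 was called, nor was Krt8 without P7 pup c or P10 pup f (adjusted p = 0.0555 to 0.075 for Krt8 and 0.0557 to 0.0638 for Krt18). Krt8 and Krt18 were also below the prenatal level in the late alveolar group (-1.21 and -1.49), while Krt7 rose around birth by 1.49 (adjusted p = 1.0e-04) and stayed above the prenatal level (0.96). The 5 type 1 cell genes had a summed level of 778 to 1472 FPKM in the postnatal saccular and 390 to 805 in the early alveolar libraries with no call, and 1 of 5 type 2 cell genes was lower. The summed level of 6 airway genes was 621 to 4968 and 961 to 5730 FPKM, with no call among the 5 tested. The part of epithelium in the change of Krt19 was not tested.

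**Figure D2:**
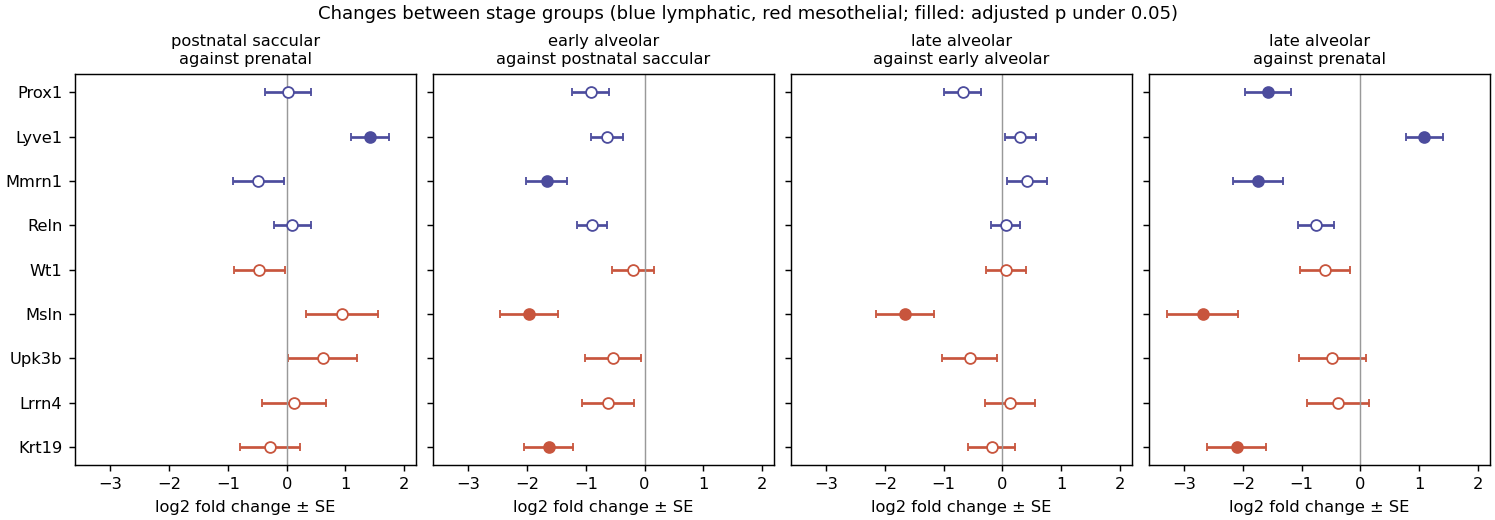
Change of each marker gene in 4 comparisons of stage groups, as log2 fold change of FPKM + 1 with the standard error of the limma fit, in blue for lymphatic and red for mesothelial genes. Filled points passed an adjusted p of 0.05 over all tested genes: Lyve1 (1.42) around birth, then Mmrn1 (-1.67), Msln (-1.97) and Krt19 (-1.63), then Msln (-1.66), and over the whole course Prox1, Lyve1, Mmrn1, Msln and Krt19.

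The remaining mesothelial genes showed no call between stage groups. Upk3b was at 6.33 and 5.80 FPKM at E16.5, at 2.14 and 1.61 at E18.5, and from 0.729 to 14.3 with a median of 7.36 in the postnatal saccular group. It ran from a listed 0 in P10 pup a to 11.8 with a median of 3.90 in the early alveolar group and from a listed 0 in P19 pup d to 7.97 with a median of 2.25 in the late alveolar group. Its spread within every postnatal group was as wide as the differences between groups, and its age test did not pass (adjusted p = 0.105), except with array quality weights (0.0415) and without P1 pup d (0.0315).

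Lrrn4 behaved in the same way after birth. It was at 4.71 and 7.74 FPKM at E16.5 and at 0.228 and a listed 0 at E18.5. It ran from 0.173 through 2.16 to 6.58 in the postnatal saccular group, from a listed 0 in P7 pup c and P10 pup a through 1.19 to 3.06 in the early alveolar group, and from a listed 0 in P13.5 pup c through 1.12 to 4.50 in the late alveolar group. All groups overlapped, and the age test did not pass (adjusted p = 0.156).

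Wt1, a transcription factor carried by mesothelium, was the least abundant of the 9 genes. It was at 3.84 and 2.74 FPKM at E16.5 and listed at 0 in both E18.5 embryos. In the postnatal saccular group it ran from a listed 0 through 0.241 to 1.63, in the early alveolar group from a listed 0 in 5 of 8 libraries to 2.30, and in the late alveolar group from a listed 0 in 4 of 9 libraries to 2.74 in P19 pup d. No stage comparison was called, and the age test gave an adjusted p of 0.153.

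Before birth the mesothelial genes moved in opposite directions. Between E16.5 and E18.5, with 2 embryos at each age, Msln rose by 2.79 (standard error 0.55, adjusted p = 0.00479), where 2.52% of all tested genes were higher. Wt1 (adjusted p = 0.0432) and Lrrn4 (-2.67, standard error 0.63, adjusted p = 0.0177) fell, where 2.00% of all tested genes were lower. Krt19 (0.90, adjusted p = 0.493) and Upk3b (-1.30, adjusted p = 0.486) were not called, nor was any lymphatic gene, with Lyve1 nearest (0.96, adjusted p = 0.0806, and 0.026 and 0.0258 without P0.5 pup e or P0.5 pup f). The embryos of the ages did not overlap for any of the 5 mesothelial genes, nor for Prox1 and Lyve1. With 2 embryos at each age this is a weak criterion, and its share over all tested genes was not counted. None of the 3 calls was made with a pseudocount of 0.1 (adjusted p = 0.126 for Msln, 0.0979 for Wt1 and 0.0552 for Lrrn4).

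Where 1 of the 4 embryos is left out, an age keeps 1 library, which is assumed to vary like the libraries of the other ages. The call of Msln was made in each of these fits and without each single pup. That of Lrrn4 was lost without E16.5 embryo 2, E18.5 embryo 4 or E18.5 embryo 3 (-2.82 to -2.37, adjusted p = 0.1 to 0.184). That of Wt1 was lost without any 1 of 16 libraries (adjusted p = 0.0514 to 0.213), namely each of the 4 embryos and both pups of P1, P2.5, P4, P13.5, P15 and P23, and with quantile normalization (adjusted p = 0.085). Among 6 other tested mesothelial genes, Bnc1, a zinc finger factor of mesothelium, fell with Wt1 and Lrrn4, from 1.35 and 3.73 FPKM at E16.5 to 0.0838 and 0.150 at E18.5 (-1.58, standard error 0.38, adjusted p = 0.0209, and without E18.5 embryo 4 or embryo 3 -1.54 and -1.62, adjusted p = 0.156 and 0.0884). Pdpn, carried by lymphatic endothelium, mesothelium and type 1 cells alike, rose by 1.55 (adjusted p = 0.0073, and without E16.5 embryo 9 or E18.5 embryo 3 1.45 and 1.38, adjusted p = 0.0596 and 0.0739).

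Markers of other tissues separated the same embryos. The summed level of 5 heart muscle genes was 995 and 2068 FPKM at E16.5 and 31.6 and 102 at E18.5, and 3 of the 5 fell. Nppa, the atrial natriuretic peptide gene, was at 34.0 and 336 FPKM at E16.5 and listed at 0 in both E18.5 embryos. Of 5 genes of adventitial and pleural fibroblasts 3 fell, among them Dcn (-3.19, adjusted p = 0.017) and Lum (-3.62, adjusted p = 0.00847), and 1 rose. In the other direction 4 of 5 type 1 and 4 of 5 type 2 cell genes rose, and their sums went from 249 and 229 to 933 and 810 FPKM and from 5368 and 2172 to 13501 and 16649 FPKM. The part of heart tissue, fibroblasts and epithelium in the prenatal changes of Wt1, Lrrn4 and Msln was not tested.

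**Figure D3:**
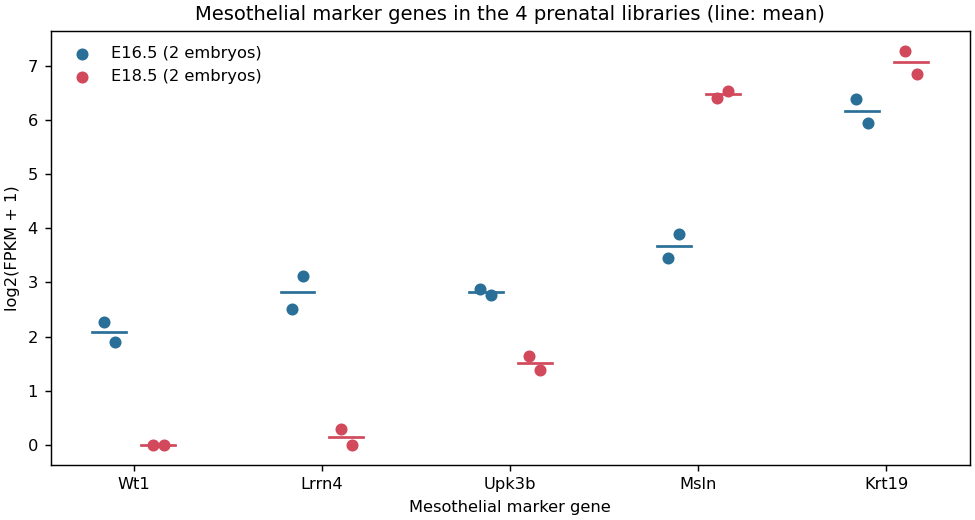
Level of the 5 mesothelial marker genes as log2(FPKM + 1) in each prenatal library, with E16.5 embryos in blue, E18.5 embryos in red and a line at each mean. Wt1, Lrrn4 and Upk3b are higher in both E16.5 embryos (Wt1 3.84 and 2.74 FPKM against a listed 0), while Msln and Krt19 are higher in both E18.5 embryos (Msln 84.0 and 91.4 against 9.99 and 13.8 FPKM).

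Further mesothelial markers gave little. Between stage groups 1 of 6 tested was called, the uroplakin gene Upk1b, which was higher in the late alveolar than in the prenatal group (1.00, adjusted p = 0.0111) and not against E18.5 alone (0.78, adjusted p = 0.193). Calb2 (calretinin) was listed at 0 in 23 of 29 libraries and did not pass the filter. Vegfd, Clca3a1 and Muc16, also on the lists, were not analysed here.

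Whether genes of 1 cell type were high in the same captures was asked for all 36 pairs of the 9 genes, on log2(FPKM + 1). Over 29 libraries 13 pairs were positively correlated with a permutation p adjusted over the 36 pairs under 0.05. They comprised 2 of 6 lymphatic pairs, 4 of 10 mesothelial pairs and 7 of 20 pairs across the cell types, and the median Pearson's r was 0.29 in each of the 3 classes. The permutation ignored age, so 2 genes that change alike with age can pass it. It cannot show by itself that genes were high in the same captures. With quantile normalization 3 pairs passed, Mmrn1 with Msln, Mmrn1 with Krt19 and Msln with Krt19.

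The closest pair joined the cell types. Mmrn1 and Krt19 had an r of 0.87 (permutation p = 1.0e-05, the smallest that 100000 permutations can give, adjusted p = 3.6e-04) and a Spearman's rho of 0.87 (adjusted p = 1.8e-04), and r was 0.80 without the 2 libraries farthest from the median of Mmrn1. Msln and Krt19 followed with an r of 0.72 (permutation p = 2.0e-05, adjusted p = 3.6e-04, rho 0.76, r without 2 libraries 0.75). Among lymphatic genes, Mmrn1 was correlated with Reln (r = 0.62, permutation p = 5.5e-04, adjusted p = 0.0048, rho 0.67) and Prox1 (r = 0.60, permutation p = 7.6e-04, adjusted p = 0.0048, rho 0.65), and Lyve1 with none (r = -0.02 to 0.19). Among mesothelial genes, Lrrn4 was correlated with Upk3b (r = 0.53, permutation p = 0.0033, adjusted p = 0.0143, rho 0.62) and Wt1 (r = 0.51, permutation p = 0.00431, adjusted p = 0.0149, rho 0.55) but not with Msln (r = 0.01). The pair of Upk3b and Krt19 (r = 0.45, permutation p = 0.0141, adjusted p = 0.0392, rho 0.29) rested on P10 pup a and P19 pup d, since r was 0.11 without them.

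Within ages, where the differences between the 2 animals of an age were compared over 14 ages with an exact sign-flip test, none of the 36 pairs passed the adjustment and 1 reached an unadjusted p under 0.05 (Lyve1 and Wt1, exact p = 0.0234). Mmrn1 and Krt19 had the largest such correlation at 0.73 (exact p = 0.0747, adjusted p = 0.896) and differed in the same direction at 10 of 14 ages. Without the 3 libraries rich in zeros, among them P10 pup a with Mmrn1 at a listed 0, this value was 0.60. Over 14 ages the correlation was 0.24 for Msln and Krt19, 0.09 for Upk3b and Lrrn4, and 0.04 for Prox1 and Mmrn1. Reln and Upk3b differed in opposite directions at 11 of 14 ages (-0.58, exact p = 0.0677). The relations over all libraries were thus not shown between animals of the same age.

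**Figure D4:**
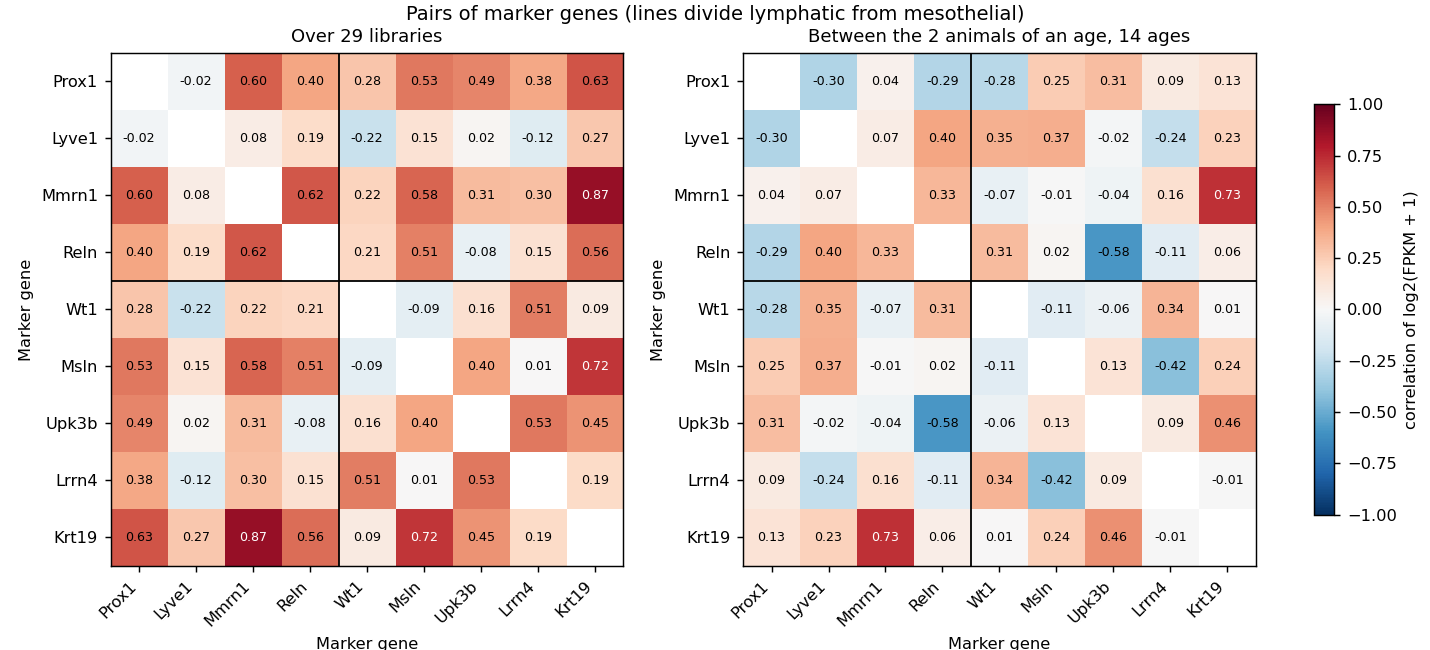
Correlations between the 9 marker genes on log2(FPKM + 1), on the left as Pearson's r over 29 libraries and on the right as the correlation of the differences between the 2 animals of an age over 14 ages, with lines between lymphatic and mesothelial genes. On the left Mmrn1, Msln, Krt19, Prox1 and Reln are positively correlated across the lines, and on the right Mmrn1 with Krt19 (0.73) has the highest value.

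**Figure D5:**
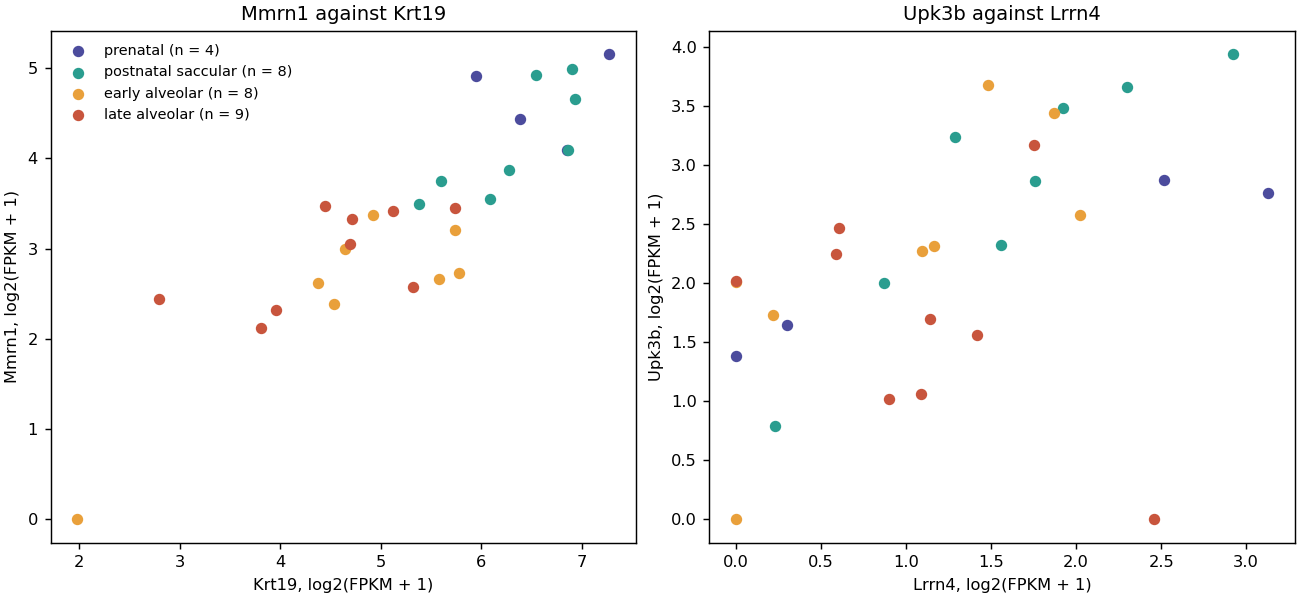
Mmrn1 against Krt19 (left) and Upk3b against Lrrn4 (right) as log2(FPKM + 1), with 1 point per library coloured by stage group. On the left the prenatal and postnatal saccular libraries lie above and to the right of most alveolar ones (r = 0.87 over 29 libraries), and on the right the groups mix (r = 0.53).

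Over all other genes with a mean of at least 1 FPKM, the likeness of each marker gene to 12600 genes (12601 for Wt1) was measured as Pearson's r of log2(FPKM + 1) over the 29 libraries, as a description. The genes most like Mmrn1 were Krt19 (0.87), Slc16a12 (0.85) and Rap2c (0.85), and those most like Krt19 were Mmrn1, Slc44a3 (0.86) and Lrrc1 (0.85). Msln was most like the imprinted RNA Meg3 (0.86), the neurexin gene Nrxn3 (0.85) and the laminin gene Lama5 (0.83). Prox1 was nearest to Sncaip (0.81), Tenm3 (0.79) and Rab34 (0.77), and Lyve1 to Scgn (0.82), Myh14 (0.81) and Pard6b (0.79). Reln was most like Anxa1 (0.75), Krt18 (0.73) and Anxa2 (0.72). The values were lower for Upk3b (Cibar1, Ccnjl and Sgms2, 0.72 each), Lrrn4 (Bap1 at 0.72, Nploc4 at 0.67 and Cma1 at 0.66) and Wt1 (Huwe1 at 0.68, Nsun2 and Elavl1 at 0.66). Of the 9 lists of 3 genes, that of Mmrn1 and that of Krt19 named another of the 9 marker genes.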

How the data were processed

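Alveolar septa of 29 mice were sequenced as stranded total RNA depleted of ribosomal RNA. By the submitters' notes, the authors used STAR 2.5.1 (mm10) and Cufflinks 2.2.1, and deposited FPKM values; the annotation and settings are not given in the sources used here. Depth is unknown, so precision rests on the spread between animals. Of 22779 gene IDs, 1226 stand on more than 1 line, and the line with the highest mean was kept; each marker gene had 1 line. Stage groups and ages come from the labels.

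Tests used limma (version 3.58.1, R 4.3.3, trended empirical Bayes) on log2(FPKM + 1) for 14616 genes that reached 1 FPKM in 4 or more libraries, in 1 fit of 4 groups, with a Benjamini-Hochberg adjusted p under 0.05 as threshold. The age test was an F test of a natural cubic spline (3 degrees of freedom) on the log2 of the day after conception, taking birth as day 19, and the embryonic ages were compared in a fit of 15 ages. The steps were tested on simulated data. Pairs were tested with 100000 permutations and exact sign flips, and sequences were scanned in Python 3.11.15 with pandas 2.3.3, scipy 1.17.1 and numpy 2.4.6.

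All 9 marker genes are named; of each further list the called genes were named (up to 4 by p per comparison), and of all genes the 3 most like each marker. The genes singled out beyond this rule (Ccl21a, Csf1r, Cd68, Mrc1, Folr2, Timd4, Calb2, the platelet genes and those given as not called) were chosen after their values were seen. The members, lists and tests were chosen with earlier results of these data known. Alternatives were another pseudocount, filters, scalings, weights, models and sets of libraries, each library left out in turn, and, chosen after seeing the data, the age test without the 2 E16.5 libraries and the further lists under these settings.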

Additional observations from a re-analysis of the deposited data

Results flagged for a closer look

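Prox1 in E16.5 embryo 2 stood apart from the other prenatal libraries, at 15.8 FPKM against 3.51 to 4.90 in the other 3 embryos. The summed heart muscle genes were at 2068 FPKM in that embryo, 995 in E16.5 embryo 9, and 31.6 and 102 at E18.5. Summed neuroendocrine genes were, in this order, at 6.35, 1.96, 0.998 and 9.59 FPKM. The part of these tissues in the Prox1 value was not tested. Wt1 in P19 pup d, at 2.74 FPKM, stood apart from the other 8 late alveolar libraries, at a listed 0 to 0.80. These were the 2 of 36 groups of 4 to 9 libraries in which the gap of the highest or lowest library exceeded the critical value of Dixon's test, and chance gives about 1 in 20.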

How the results depend on the processing

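The number of the 9 genes called was least stable at the saccular-to-alveolar step. There 27 alternatives stayed within 1.5 times the main count and 12 fell below that. The number was 0 in place of 1 around birth, and 3 in place of 5 over the whole course, when E18.5 alone stood for the embryos. At the saccular-to-alveolar step it was 0 in place of 3 with a pseudocount of 0.1 and 1 with no filter on low values. With each library left out in turn it was between 1 and 4, and 10 of these 29 fits gave 1. At the early-to-late alveolar step it was 0 in place of 1 without the 3 libraries rich in zeros and 0 to 1 with each library left out. For E18.5 against E16.5 it was 0 in place of 3 with a pseudocount of 0.1, 1 with a filter at an FPKM of 5, and 1 to 4 with each library left out. Correlated pairs numbered 3 in place of 13 with quantile normalization. Of 303 such counts under an alternative, 278 were within 1.5 times the main count. These include 34 counts of pairs within ages, which were 0 in every setting.

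Directions turned in 34 of 3529 values for single genes and pathway counts, each of a gene not called. With E18.5 alone, Wt1 (0.58) and Msln (-0.45) around birth and Wt1 (0.44), Upk3b (0.18) and Lrrn4 (0.96) over the whole course turned. With median ratio scaling Prox1 around birth (-0.00284) and Mmrn1 at E18.5 (0.0135) did so, with array weights Wt1 (-0.0238) and Lrrn4 (-0.15) at the early-to-late alveolar step, as they did there (-0.14 each) when the 3 libraries rich in zeros were left out. With each library left out in turn the values around birth ran from -0.17 to 0.46 for Prox1, from -0.37 to 0.67 for Lrrn4 and from -0.0364 to 0.24 for Reln. At the early-to-late alveolar step they ran from -0.0292 to 0.16 for Reln, from -0.044 to 0.27 for Lrrn4, from -0.12 to 0.25 for Wt1 and from -0.57 to 0.0297 for Krt19. Over the whole course Lrrn4 ran from -0.87 to 0.17, and at E18.5 Reln from -0.19 to 0.30 and Mmrn1 from -0.58 to 0.48. The cause was not tested.

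No paired analysis was possible because pup letters and embryo numbers name animals within an age and pair none across ages. The prenatal group joins 4 animals of 2 ages that differed in other tissues, the depth of the libraries is unknown, and genes near 1 FPKM (Wt1, Lrrn4, Reln) rest on few reads.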
